A study of Homo sapiens with 2 samples.

Results

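The SLC25 genes encode the mitochondrial carriers, and S9.6 peaks were examined at the 48 protein-coding genes whose symbols run from SLC25A1 to SLC25A53 in a RefSeq gene table of GRCh38.p14, among 19974 protein-coding genes on chromosomes 1 to 22 and X. The cells were A549, a human lung cancer line, of wild-type genotype and with no treatment named in the labels. The assay was CUT&Tag, in which a transposase recruited by the antibody cuts and tags DNA close by, and the antibody was S9.6, raised against RNA-DNA hybrids. The labels give 1 S9.6 library, whose peaks are used, and 1 IgG library as a non-specific reference, which is not analysed here. Without a replicate, libraries were not tested against each other, and the intervals below are 95% Wilson intervals that cover counting error over genes.

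Carriers of this family sit in the inner mitochondrial membrane, with a few in other membranes, and exchange metabolites between the matrix and the cytosol: nucleotides, phosphate, carboxylates, amino acids, cofactors and metals. They are nuclear genes, their proteins are imported after translation, and they link glycolysis, the tricarboxylic acid cycle and ATP synthesis. An R-loop is a stretch where RNA pairs with the template strand of DNA and leaves the other strand unpaired. Such structures are known from the starts of genes with CpG-rich promoters, where clusters of G on the non-template strand favour them.

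Each peak is described by its maximum coverage, the highest coverage that the authors' file gives within it, and by its total signal, the coverage summed over its bases. Both are whole numbers, and nothing in them points to scaling by depth. Coverage was shallow: the 45756 peaks on these chromosomes had a median maximum coverage of 2, a median total signal of 986 and a median width of 686 bp. A maximum coverage of 5 or more was reached by 9.54% of them, and 10 or more by 1.38%. Read depth is unknown, and genes with no listed peak may hold signal too weak for the authors' threshold.

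Most carrier genes had a peak. At least 1 base of a peak fell within 1000 bp of an end of the gene span, called a boundary here, at 30 of the 48 genes (62.5%, 95% interval 48.4 to 74.8), where 40.1% of all protein-coding genes had a boundary peak. A further 6 carrier genes (12.5%) had peaks inside the span alone, as did 20.3% of protein-coding genes, and 12 had no peak listed, so that 36 (75.0%, 61.2 to 85.1) had a peak somewhere, where 60.4% of protein-coding genes did. The strongest peak of a gene reached a maximum coverage of 5 or more at 15 of the 48 (31.2%, 19.9 to 45.3), against 17.8% of protein-coding genes. It reached 10 or more at 5 of the 48 (10.4%, 4.53 to 22.2), against 2.54% of protein-coding genes. Among them were SLC25A25 with 15, SLC25A6 and SLC25A45 with 12 each and SLC25A28 with 11.

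**Figure D1:**
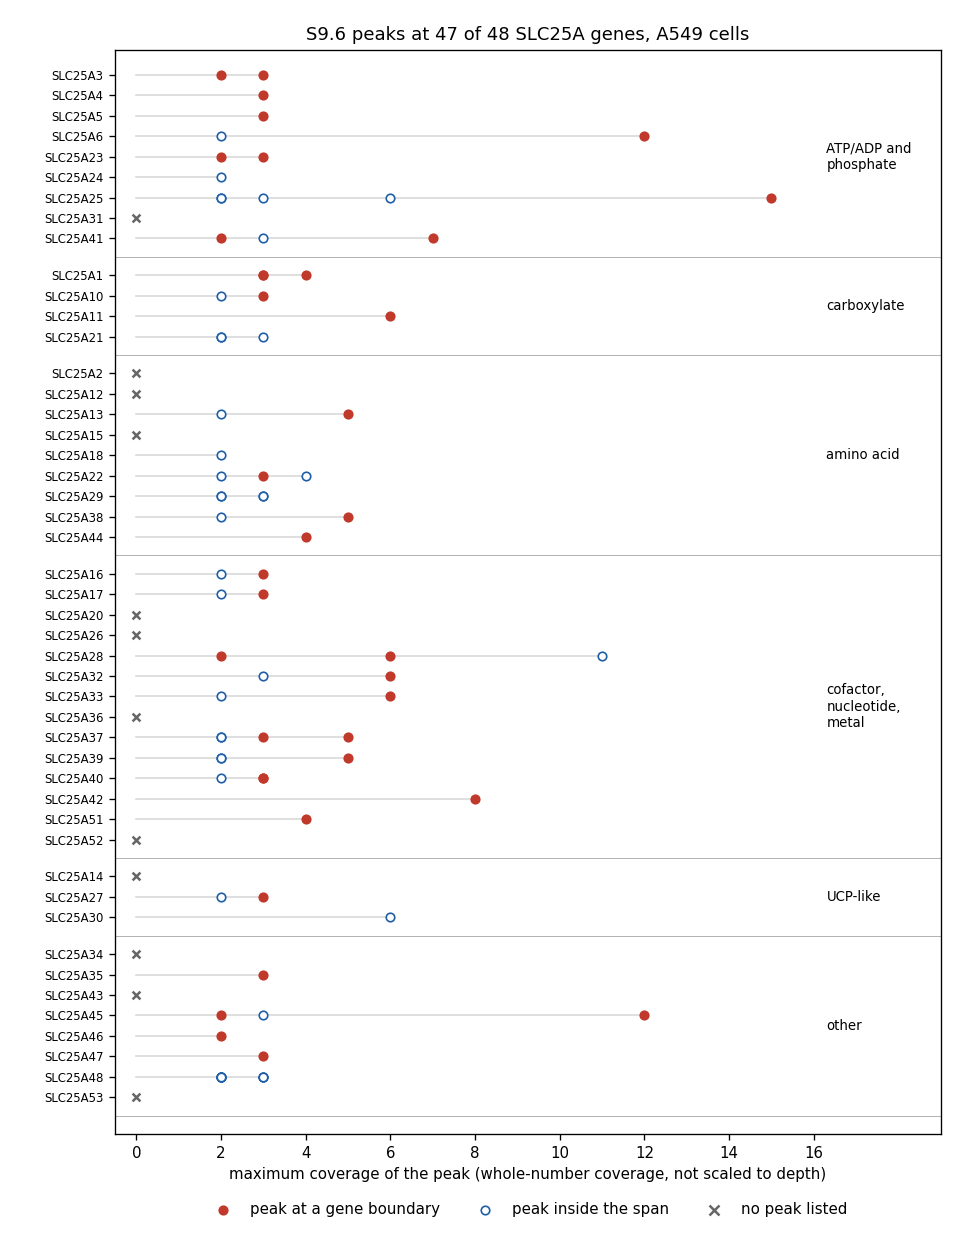
Maximum coverage (x axis, whole numbers not scaled to depth) of each S9.6 peak at 47 of the 48 SLC25A genes, grouped by the type of substrate. Filled red points are peaks at a gene boundary, open blue points peaks inside the span, and crosses genes with no peak listed. Points of equal coverage at 1 gene lie on top of each other. Most genes carried peaks of 2 to 4, and SLC25A25, SLC25A6, SLC25A45 and SLC25A28 carried a peak of 10 or more.

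Promoter sequences are shown for 6 genes with the highest peaks over the promoter window and for 2 genes without a peak. The part of each window that a peak covered is given below. SLC25A11 and SLC25A33 tied for the last place with a peak of 6, and SLC25A11, whose peak had the larger total signal, is printed. Each window runs from 250 bases before to 50 bases after a start site listed by RefSeq (GRCh38.p14), 5′ to 3′ in the direction of transcription, with runs of GGG or longer in capitals. Of the 48 genes, 40 had an entry in this table. SLC25A2, SLC25A16, SLC25A30, SLC25A32, SLC25A35, SLC25A37 and SLC25A41 were among those without one.
SLC25A25, chr9:128067982-128068281, plus strand: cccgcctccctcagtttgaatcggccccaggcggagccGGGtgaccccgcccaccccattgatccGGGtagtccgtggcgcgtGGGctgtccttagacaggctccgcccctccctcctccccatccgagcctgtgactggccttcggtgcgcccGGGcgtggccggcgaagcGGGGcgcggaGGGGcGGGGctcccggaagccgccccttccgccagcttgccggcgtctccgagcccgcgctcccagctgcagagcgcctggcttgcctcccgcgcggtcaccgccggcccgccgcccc
SLC25A6, chrX:1392064-1392363, minus strand: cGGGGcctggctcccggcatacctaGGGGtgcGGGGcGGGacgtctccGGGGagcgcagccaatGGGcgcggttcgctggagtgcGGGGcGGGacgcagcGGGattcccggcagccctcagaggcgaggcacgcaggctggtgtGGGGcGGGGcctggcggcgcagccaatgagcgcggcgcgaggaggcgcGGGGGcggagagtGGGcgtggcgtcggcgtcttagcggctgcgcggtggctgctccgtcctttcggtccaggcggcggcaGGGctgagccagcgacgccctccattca
SLC25A45, chr11:65382597-65382896, minus strand: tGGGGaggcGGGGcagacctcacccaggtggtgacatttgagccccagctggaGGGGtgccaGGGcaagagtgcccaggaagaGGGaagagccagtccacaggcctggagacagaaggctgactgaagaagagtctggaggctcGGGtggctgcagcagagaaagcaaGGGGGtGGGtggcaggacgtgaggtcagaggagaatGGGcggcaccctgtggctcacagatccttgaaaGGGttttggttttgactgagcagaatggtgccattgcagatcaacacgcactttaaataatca
SLC25A28, chr10:99620390-99620689, minus strand: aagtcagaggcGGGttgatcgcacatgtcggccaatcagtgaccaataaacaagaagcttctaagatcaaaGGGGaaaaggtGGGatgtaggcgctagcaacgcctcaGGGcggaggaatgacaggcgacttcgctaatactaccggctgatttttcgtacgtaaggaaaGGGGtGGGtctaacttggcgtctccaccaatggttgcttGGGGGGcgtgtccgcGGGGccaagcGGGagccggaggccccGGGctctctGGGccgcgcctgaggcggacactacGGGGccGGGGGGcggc
SLC25A42, chr19:19063744-19064043, plus strand: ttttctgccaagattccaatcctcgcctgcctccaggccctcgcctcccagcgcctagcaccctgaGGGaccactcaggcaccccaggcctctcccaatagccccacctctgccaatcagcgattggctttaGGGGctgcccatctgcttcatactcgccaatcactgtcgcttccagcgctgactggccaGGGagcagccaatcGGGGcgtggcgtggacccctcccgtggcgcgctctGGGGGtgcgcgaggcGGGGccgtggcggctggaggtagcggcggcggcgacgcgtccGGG
SLC25A11, chr17:4939997-4940296, minus strand: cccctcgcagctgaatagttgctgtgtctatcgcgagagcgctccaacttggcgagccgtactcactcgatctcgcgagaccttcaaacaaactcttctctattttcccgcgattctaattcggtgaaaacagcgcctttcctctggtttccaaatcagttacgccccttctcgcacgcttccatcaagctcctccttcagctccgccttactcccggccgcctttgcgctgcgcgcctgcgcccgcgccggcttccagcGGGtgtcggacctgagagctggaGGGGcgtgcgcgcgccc
SLC25A12, chr2:171894195-171894494, minus strand: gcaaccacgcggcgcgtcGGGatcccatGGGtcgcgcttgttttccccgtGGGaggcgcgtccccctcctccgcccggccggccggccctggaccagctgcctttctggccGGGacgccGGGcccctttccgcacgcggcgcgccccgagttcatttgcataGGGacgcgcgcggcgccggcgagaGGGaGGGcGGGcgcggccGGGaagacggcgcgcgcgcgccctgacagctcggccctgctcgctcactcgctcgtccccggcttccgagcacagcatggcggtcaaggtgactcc
SLC25A14, chrX:130339669-130339968, plus strand: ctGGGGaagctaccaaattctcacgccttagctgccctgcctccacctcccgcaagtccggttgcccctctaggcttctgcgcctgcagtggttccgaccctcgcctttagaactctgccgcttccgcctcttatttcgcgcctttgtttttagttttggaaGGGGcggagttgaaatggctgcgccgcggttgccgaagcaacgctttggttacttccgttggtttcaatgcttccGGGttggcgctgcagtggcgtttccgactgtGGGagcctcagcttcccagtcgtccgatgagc

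The 6 windows under peaks differed in strand composition. SLC25A6, SLC25A28 and SLC25A45 held 14, 13 and 10 G runs but 4, 1 and 4 C runs, with a GC skew, the difference of G and C over their sum on the printed strand, of 0.22, 0.21 and 0.30. SLC25A25, under the highest peak of the family, went the other way with 7 G runs, 17 C runs and a skew of -0.14. SLC25A11 held 2 G runs and 6 C runs with a skew of -0.21, and the window of SLC25A33, tied with it in height, held 4 G runs and 11 C runs with a skew of -0.24. Of the 2 windows without a peak, SLC25A12 held 10 G runs and SLC25A14 held 4, where the median of all protein-coding genes was 7. The peak covered the whole window at SLC25A25, SLC25A6 and SLC25A45, 281 of its 300 bases at SLC25A28, 245 at SLC25A42 and 108 at SLC25A11. Among these printed windows, the region of highest coverage lay inside the window at SLC25A6 alone. At SLC25A25, SLC25A45, SLC25A28, SLC25A42 and SLC25A11 it lay outside. The run and skew values there do not describe the DNA of highest coverage. Most of each window also lies before its listed start site, and RNA begun at that site does not copy this part. The peak over the SLC25A25 window lay at the boundary of NAIF1 as well. Which strand was transcribed in these windows was not tested, so the values describe the printed sequence alone.

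Adenine nucleotide and phosphate carriers had a boundary peak at 7 of 9 genes, where 40.1% of all protein-coding genes had one. The 4 ADP/ATP carriers, which exchange cytosolic ADP for matrix ATP, differed among themselves. The peak of SLC25A6 (chromosome X, 1391600 to 1392955) reached a maximum coverage of 12, was 1356 bp wide and had a total signal of 7749. Its highest part lay 94 bp upstream of the start site, and the peak also lay at the boundary of LOC124900597. SLC25A4, the form best known from heart and skeletal muscle, had a single peak of 3 (total signal 1134), and SLC25A5 had a single peak of 3 (total signal 1529) that also lay at the boundary of its antisense lncRNA gene SLC25A5-AS1. SLC25A31, known from germ cells, had no peak listed. A height of 12 or more was reached by 0.898% of all peaks, and 3 or more by 45.4%. SLC25A6 lies in the pseudoautosomal region shared by X and Y. The file lists 53 peaks on Y, the lowest starting at 4344781, so no peak is listed at the Y copy, and the copies cannot be told apart.

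The ATP-Mg/phosphate carriers, which adjust the adenine nucleotide pool of the matrix, ranged from the highest peak of the family to the lowest class. SLC25A25 had 5 peaks. The highest, on chromosome 9 at 128067150 to 128068291, reached 15 with a total signal of 6930, and 0.535% of all peaks reach that height. It overlapped the first start site with its highest part 703 bp upstream, and it also lay at the boundary of the neighbour NAIF1. A peak of 6 (128098170 to 128098948, total signal 2749) lay inside the gene span with its highest part 19 bp upstream of the last of its 3 listed start sites, 30275 bp into the gene, while the middle start site had a peak of 2. SLC25A41 had a peak of 7 (chromosome 19, 6424935 to 6425555, total signal 2296) that lay wholly outside the gene, at the boundary of KHSRP, and shared a peak of 2 with its neighbour SLC25A23. SLC25A23 had a further peak of 3, and SLC25A24 had a single peak of 2 inside its span. SLC25A3, the phosphate carrier that supplies ATP synthase, had a peak of 3 at its start and 1 of 2 at its end.

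**Figure D2:**
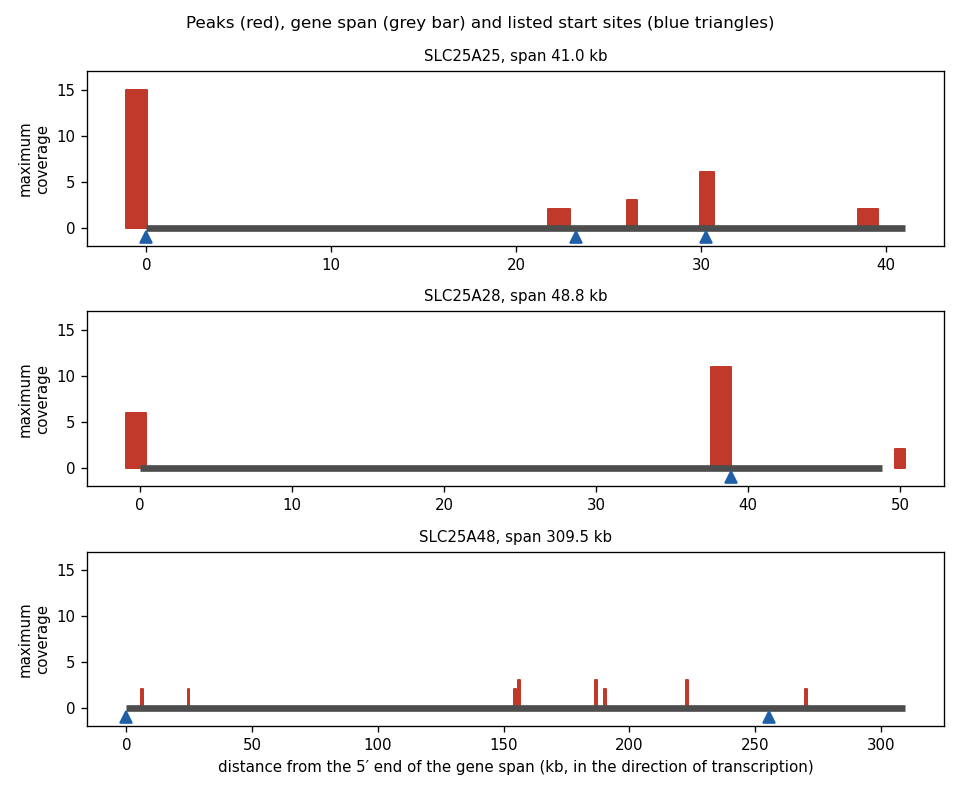
Peaks (red, height is maximum coverage, width to scale), gene span (grey bar) and listed start sites (blue triangles) of SLC25A25, SLC25A28 and SLC25A48, against distance from the 5′ end of the span in kb. The highest peaks of SLC25A25 (15 and 6) and of SLC25A28 (11) adjoined listed start sites, whereas the 8 peaks of SLC25A48 were 2 or 3 high and lay away from both of its start sites.

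Carboxylate and keto acid carriers had a boundary peak at 3 of 4 genes (40.1% of all protein-coding genes). SLC25A11, which exchanges 2-oxoglutarate for malate in the malate-aspartate shuttle, had a peak of 6 (chromosome 17, 4940189 to 4941158, total signal 2393). It lay wholly upstream of the gene, with its highest part 304 bp before the start, and also at the boundary of RNF167. SLC25A1, the citrate carrier, had 3 boundary peaks of 4, 3 and 3 around a span of 3.16 kb. The peak of 4 and 1 of those of 3 lay wholly outside the span, and the peak of 4 also lay at the boundary of CLTCL1. SLC25A10, the dicarboxylate carrier, had 1 of 3 and 1 of 2. SLC25A21, the longest member at 495 kb, had 3 peaks of 2 or 3, none at a boundary.

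Amino acid carriers had a boundary peak at 4 of 9 genes and no peak at 3. Both counts were near those of all protein-coding genes, of which 40.1% had a boundary peak and 60.4% any peak. The paired aspartate-glutamate carriers differed: SLC25A13 had a peak of 5 at its start (chromosome 7, 96321409 to 96322274, total signal 2467), and SLC25A12 had none over its 111 kb. SLC25A38, a glycine carrier needed for haem synthesis, had a peak of 5 at its start (chromosome 3, 39383233 to 39384206, total signal 2259), which also touched LOC105377644. SLC25A44, a branched-chain amino acid carrier, had a peak of 4 at its end, shared with the boundaries of PMF1 and PMF1-BGLAP. The glutamate carriers had up to 4 at SLC25A22, inside the gene, and 2 at SLC25A18. SLC25A29, a carrier of basic amino acids, had 4 peaks of 2 or 3 inside its span and none at a boundary. Its promoter window has a GC content of 80.0%. Neither ornithine carrier, SLC25A15 or SLC25A2, had a peak listed.

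Carriers of cofactors, nucleotides, carnitine, metals and glutathione had a boundary peak at 11 of 15 genes, where 40.1% of all protein-coding genes had one. A peak of 5 or more was present at 7 of the 15, where 17.8% of all protein-coding genes had one. The mitoferrins bring iron into the matrix. Mitoferrin 2, SLC25A28, had a peak of 11 (chromosome 10, 99620409 to 99621718, total signal 6589) and mitoferrin 1, SLC25A37, reached 5 (chromosome 8, 23528272 to 23529330, total signal 2643). The peak of SLC25A28 counts as inside the span because RefSeq's span begins 38847 bp upstream of the listed start site. It overlapped that start site and the boundary of the divergent lncRNA gene SLC25A28-DT. A second peak of 6 at the far 5′ boundary is shared with ENTPD7, and a peak of 2 lies past the 3′ end. SLC25A42, a coenzyme A carrier, had 8 just upstream of its start (chromosome 19, 19062898 to 19063988, total signal 2748). This peak also lay at the boundary of LOC124904655.

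SLC25A32, linked to folate and FAD transport, had a peak of 6 (chromosome 8, 103414370 to 103415603, total signal 3304) shared with DCAF13. The pyrimidine nucleotide carrier SLC25A33 also had 6 (chromosome 1, 9539101 to 9539500), in a narrow peak of 400 bp with a total signal of 907, below the median total of all peaks in spite of its height. SLC25A36, the other pyrimidine nucleotide carrier, had no peak listed. Of the glutathione carriers, SLC25A39 reached 5 (chromosome 17, 44324121 to 44325686, total signal 3409), in the widest peak of the family at 1566 bp, and SLC25A40 reached 3. The peak of 5 at SLC25A39 also lay at the boundary of LOC124904009, and both peaks of 3 at SLC25A40 lay at the boundary of DBF4. The NAD+ carrier SLC25A51 reached 4 at its start, and SLC25A52, its close relative, had no peak. SLC25A16 and the peroxisomal carrier SLC25A17 reached 3. SLC25A20, the carnitine-acylcarnitine carrier, and SLC25A26, the S-adenosylmethionine carrier, had none, the second over a span of 245 kb.

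Among relatives of the uncoupling proteins, which let protons leak across the inner membrane, SLC25A30 had a peak of 6 inside its span at the boundary of SLC25A30-AS1 (chromosome 13, 45418108 to 45418728, total signal 1435). SLC25A27 reached 3, in a peak also at the boundary of CYP39A1, and SLC25A14 had none. The 8 other carriers had a boundary peak at 4 genes (40.1% of all protein-coding genes). SLC25A45 had a peak of 12 (chromosome 11, 65381953 to 65383028, total signal 4937), with no boundary of another protein-coding or lncRNA gene at it. Its highest part lay between the 2 listed start sites, 327 bp downstream of the nearer and upstream of the other. SLC25A35 and SLC25A47 reached 3, and SLC25A46, an outer membrane protein of mitochondrial dynamics, reached 2. The peak of SLC25A46 also lay at the boundary of TMEM232. SLC25A48 had 8 peaks, the most of any member, with a maximum of 3 and none at a boundary. SLC25A34, SLC25A43 and SLC25A53 had none.

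With strand known for 40 members, starts could be told apart from ends. A peak lay within 1000 bp of the 5′ end of the span at 22 of 40 members (55.0%, 39.8 to 69.3), where 36.0% of the 15812 protein-coding genes with strand had one. It lay at the 3′ end at 7 of 40 (17.5%, 8.75 to 31.9), where 11.4% of those genes had one. Both ends were marked at 5 of the 40 (12.5%), against 6.66% of genes. The 331 other solute carrier genes, many of whose products act at the plasma membrane, had a boundary peak in 37.5% of cases (32.4 to 42.8), any peak in 65.0%, a start peak in 29.3% and an end peak in 14.8%. Their strongest peak reached 5 or more in 13.0% and 10 or more in 1.21%, with 14 at SLC38A8, 12 at SLC2A8 and 10 at SLC20A1, and SLC10A2, SLC10A4 and SLC10A5 were among those without a peak. The difference between the mitochondrial carriers and these genes was described and not tested.

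**Figure D3:**
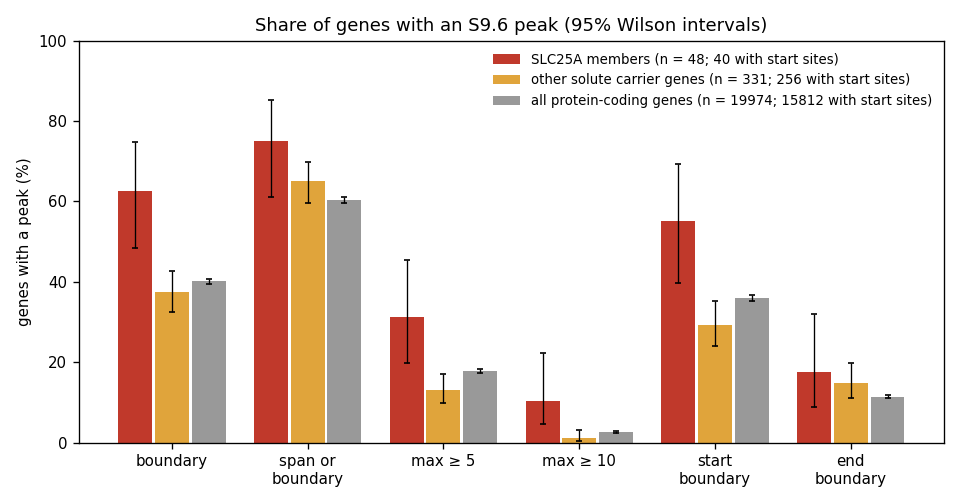
Share of genes (%) with a peak under each criterion, for the 48 SLC25A genes, 331 other solute carrier genes and 19974 protein-coding genes. Start and end boundaries use the genes with a listed start site, and bars carry 95% Wilson intervals. The SLC25A share was above both others in each criterion shown, by a narrow margin over the other solute carriers at end boundaries (17.5% and 14.8%).

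Peaks of 5 or more lay mostly at starts. The 40 members with start sites had 66 pairings of gene and peak. The middle of the highest region lay within 1000 bp of a start site for 11 of 12 peaks of 5 or more (91.7%), for 12 of 25 peaks of 3 or 4 (48%) and for 2 of 29 peaks of 2 (6.90%). Over all protein-coding genes these shares were 70.6%, 29.9% and 10.1%. The remaining peak was the one of 6 at the far 5′ boundary of SLC25A28. Of the 11 near starts, 8 had their highest region upstream of the nearest listed start and 3 downstream of it, at SLC25A13, SLC25A38 and SLC25A45. For peaks of any height within 1000 bp, 13 were upstream and 12 downstream. Inside spans, 27 of 41 peaks had a maximum coverage of 2 and 3 reached 5 or more, at SLC25A25, SLC25A28 and SLC25A30.

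**Figure D4:**
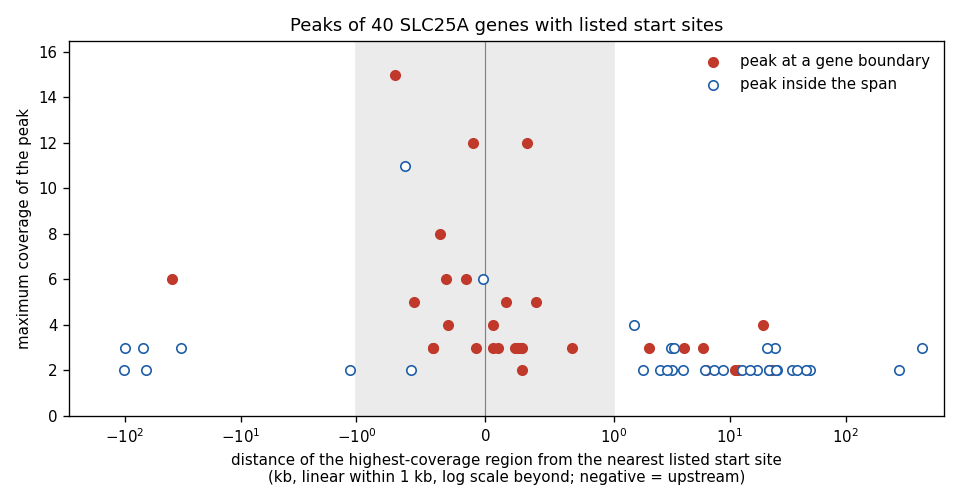
Maximum coverage of the 66 peaks of 40 SLC25A genes (y axis) against the distance of their highest-coverage region from the nearest listed start site (x axis, kb, linear within 1 kb and logarithmic beyond, negative upstream). The grey band marks 1 kb to either side. Peaks of 5 or more lie in the band in 11 of 12 cases, and peaks of 2 lie in it in 2 of 29.

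Shared ground with neighbours affects which gene a peak counts for. Of 40 pairings of a member with a boundary peak, 20 (50%) also touched a boundary of another protein-coding or lncRNA gene, as did 47.5% over all protein-coding genes, and 10 (25%) lay wholly outside the member, as did 27.7%. With such shared peaks left out, 16 of 48 members (33.3%) had a boundary peak, where 23% of protein-coding genes did, and 9 of 40 (22.5%) had a start peak, where 18.4% did. Of the 15 boundary pairings of 5 or more, 10 also touched a boundary of another such gene. The share over all protein-coding genes at this height is not given. The boundary peaks of 5 or more at SLC25A13, SLC25A33, SLC25A37 and SLC25A45 were among those that touched no other such gene.

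Peaks were also counted by span length. Members had a median span of 26.8 kb, against 24.2 kb over protein-coding genes. Of the 14 members under 10 kb, 11 (78.6%, 52.4 to 92.4) had a boundary peak, where 38.4% of genes of that length did. Among the 26 of 10 to 50 kb it was 18 (69.2%, 50 to 83.5) against 43.9%. Of the 8 over 50 kb it was SLC25A13 alone (12.5%, 2.24 to 47.1) against 36.7%, a share within that interval. Any peak was present at 11 of the 14 shortest (78.6%, 52.4 to 92.4) against 43.1%, and at 21 of the 26 of middle length (80.8%, 62.1 to 91.5) against 61.4%. Among the 8 longest the order was the other way, with any peak at 4 (50%, 21.5 to 78.5) against 74.7%, which also lies within the interval. With protein-coding genes weighted to the members' span classes, the background was 41.1% for boundary peaks and 58.3% for any peak. Weighted to the members' chromosomes, it was 39.5% and 59.6%.

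By chromosome, the 5 members on chromosome 17, SLC25A10, SLC25A11, SLC25A35 and SLC25A39 among them, each had a boundary peak, on a chromosome where 54.7% of protein-coding genes had one. The 3 members on chromosome 19 also did (51.3% of its genes). On chromosome X 2 of 5 did, SLC25A5 and SLC25A6 (21.5%), and on chromosome 3 it was SLC25A38 alone of 4 (33.1%). Other chromosomes with at least 3 members were 1 (2 of 4, 32.7%), 5 (1 of 3, 36.1%), 14 (1 of 3, 49.8%) and 22 (2 of 3, 59.2%).

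Promoters of the family were rich in G and C. The window at the first listed start had a median GC content of 66.8% in 40 members, against 62.7% in 15812 protein-coding genes, and a median observed-to-expected CpG ratio of 0.90 against 0.76. A peak overlapped this window in 20 of 40 members (50%) and in 4495 of the 15812 protein-coding genes. The median GC content was 70.3% in those 20 and 65.5% in the other 20, with 9 and 6.5 G runs and a GC skew of -0.07 and -0.03. Their C runs were 8 and 8.5 and their CpG ratios 0.90 and 0.91, close to equal. Over all protein-coding genes the medians were 66.0% under a peak and 60.3% without, with 8 and 6 G runs. There the C runs were 7 and 6, the CpG ratios 0.86 and 0.68, and the GC skew was 0.01 in each group. Windows of 70% GC or more were under a peak in 10 of 16 members (62.5%) and 35.2% of all genes, and those of 60 to 70% in 7 of 14 (50%) and 39.3%. Those of 50 to 60% were so in 3 of 7 (42.9%) and 23.3%, and those below 50% in 0 of 3 members and 4.55% of all genes. Weighted to the members' GC classes, the share over all genes was 32.3%. Expression was not measured, so these shares could not be set against transcription.

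**Figure D5:**
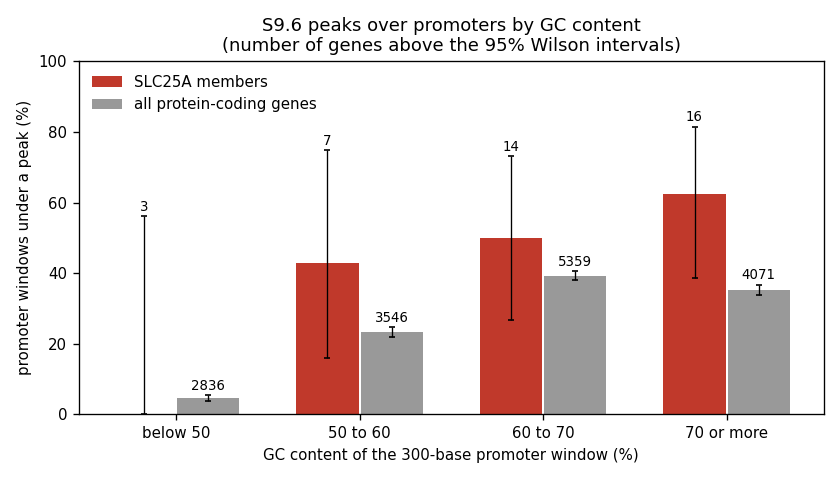
Share of promoter windows under an S9.6 peak (%, y axis) by GC content of the 300-base window (x axis), for SLC25A genes (red) and all protein-coding genes (grey), with 95% Wilson intervals and the number of genes above each bar. Among SLC25A genes 0 of 3 windows below 50% GC and 10 of 16 at 70% or more were under a peak.

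Short motifs of promoter-binding factors were read on both strands of these windows as a description of the sequence. The GC box GGGCGG, which can overlap a G run, was in 29 of 40 members (72.5%, against 58.3% of all genes). It was in 15 of the 20 under a peak and 14 of the 20 without, and over all genes in 75.9% and 51.3%. The CCAAT box was in 18 (45.0%, against 36.4%), in 11 of the 20 under a peak and 7 of the 20 without (all genes 40.5% and 34.7%). The ETS core CCGGAAG was in 9 (22.5%, against 14.1%), in 5 of the 20 under a peak and 4 of the 20 without (all genes 20.9% and 11.4%). The letters TGCGCA, part of the site of NRF1, a regulator of many nuclear genes for mitochondrial proteins, was in 5 (12.5%, against 10.8%): SLC25A3, SLC25A29, SLC25A31, SLC25A33 and SLC25A52. The TATA box TATAAA was in 3 (7.50%, against 9.75%): SLC25A5, SLC25A18 and SLC25A26. A run of GGG on the printed strand was in 38 of 40 windows, and in 98.2% of all genes.

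Other genes of mitochondrial transport and metabolism were read in the same way. Of 5 family members named otherwise, UCP2 had a boundary peak of 12, while UCP1, UCP3, MTCH1 and MTCH2 had no peak listed. Of 16 genes of the pathway that imports carrier proteins, 6 had a boundary peak, 1 had a peak inside alone and 9 had none. TOMM40, the channel of the outer membrane, reached 30, and TIMM29 and TOMM20 reached 4, while AGK, TIMM10 and TIMM22 had none. Of 17 other mitochondrial membrane transporters and channels, 12 had a boundary peak and 4 a peak inside alone. The highest were ABCB8 and SFXN2 with 7 and ABCB10 with 6. Of 18 tricarboxylic acid cycle genes, 11 had a boundary peak, with 7 at OGDH and SDHA, and DLST, FH and SDHB were among the 6 without a peak. These shares, too, stand beside 40.1% of protein-coding genes and 62.5% of SLC25A genes, and were not tested. Boundary peaks at 12 of 17 transporters and channels and 11 of 18 tricarboxylic acid cycle genes were shares near that of SLC25A genes. A peak of 5 or more was present at 5 of these 17 and 6 of these 18. It was present at 1 of the 16 import genes and 1 of the 5 family members named otherwise. Among SLC25A genes it was 15 of 48, and among protein-coding genes 17.8%. A share above that of protein-coding genes was therefore not particular to the SLC25A family, for boundary peaks or for peaks of 5 or more.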

How the data were processed

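R-loop CUT&Tag was carried out on A549 cells with S9.6 or IgG, and the peak list of the S9.6 library was used. Per the submitters' processing notes, the tools, named without roles or order, were SEACR 1.3 (whose 6-column layout the list has), deepTools 3.5.2, Bowtie2 2.4.2, fastp 0.23.2, bedtools 2.30.0 and SAMtools 1.9, and the build was GRCh38. The deposited signal columns, total signal and maximum coverage, were identified from their values: no total among the 47810 peaks exceeded width times maximum. The calling threshold, the role of the IgG library and the handling of duplicate or multiply mapped reads are not stated in the labels or the file. The file holds no read totals, so depth is unknown.

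The 45756 peaks on chromosomes 1 to 22 and X (95.7%) were overlapped with gene spans from RefSeq (GRCh38.p14) in Python 3.11.15 with pandas 2.3.3, using windows of 1000 bp and at least 1 shared base. Strand and start sites came from RefSeq promoter entries. A gene listed with several start sites used each for distances and the first for promoter composition. The overlap code was tested on simulated data against a brute-force count. No statistical test was made, since there was 1 library. Members, substrate groups, comparison lists and motifs were chosen with earlier results of these data known. Full values are given for members whose strongest peak reached 5. Members with lower peaks are named with their maximum coverage, and for the other lists the 3 highest genes and the first 3 without a peak in alphabetical order are named, except that a few genes that enter the counts are not reported by name here. Alternatives were window size, stricter peaks, stricter overlap and leaving out shared peaks.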

Additional observations from a re-analysis of the deposited data

How the results depend on the processing

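Each of 5 results (members with a boundary peak, with any peak, with a start peak, the number of gene-peak pairings and the median strongest coverage) was recomputed under 8 alternatives, those of start peaks being chosen after the data were seen. Of the 40 values, 31 stayed within 1.5 times the reported count or within the interval of the median. The median strongest coverage was 4 over members with a peak and 3 over protein-coding genes with a peak. Members and protein-coding genes had equal medians with coverage of 3 or more (4), with 5 or more (6) and without shared peaks (3). With peaks of maximum coverage 5 or more, 14 members had a boundary peak (14.5% of protein-coding genes did) and 15 any peak (17.8%). A start peak was present at 10 of the 40 members with strand known, where 14.2% of protein-coding genes with strand had one. There were 18 pairings and a median of 6, which fewer peaks must give. Pairings were 48 with coverage of 3 or more and 47 with the higher peaks by total signal. Without shared peaks, 16 members had a boundary peak and 9 a start peak. Members were above protein-coding genes in the share with a boundary peak, any peak or a start peak under each of the 8 alternatives. The margin was narrowest for start peaks without shared peaks, at 22.5% of members against 18.4%. No interval was given for these alternatives, so a margin within counting error was not told apart. A window of 500 bp ended the boundary call of SLC25A46 and SLC25A47, and 2000 bp added no member.

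No paired analysis was possible because each antibody had 1 library. Shallow coverage limits the peaks of 2 and 3 most, and without the IgG library or RNase H treatment, hybrid-dependent signal was not separated from other tagging.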
